A study of Oryctolagus cuniculus with 2 samples.

Results

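The amacrine nuclei of the rabbit retina described here are those that the authors' table of nuclei labels as amacrine cells and places in clusters 5, 11, 13, 17, 18, 21, 22, 23 or 26. They are the amacrine clusters other than 12 and 15. Together they hold 822 of 6542 nuclei, 381 in the knockout (KO) library and 441 in the wild-type (WT) library, and 822 of the 1029 nuclei labelled amacrine. The label and the cluster number alone chose them, and both were made by the authors from the same counts, so that the features that separate the clusters are descriptions and not tests.

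Amacrine cells are inhibitory interneurons of the inner retina. Most release GABA or glycine onto bipolar cells, ganglion cells and other amacrine cells, and in doing so they shape the timing, the spatial extent and the contrast of the signal that leaves the eye. They are the most diverse class of retinal neurons in mammals, with types such as starburst cells, which also release acetylcholine and serve direction selectivity, AII cells, which pass rod signals to the cone pathway, and dopaminergic cells. CLRN1 encodes clarin-1, a membrane protein of hair cells and retina. In humans, mutations in it lead to Usher syndrome, a combined loss of hearing and sight.

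Retinas of CLRN1 knockout rabbits and of wild-type rabbits, all 10 months old, were studied by single-nucleus RNA sequencing. From each animal a 5 mm punch was frozen. It was cut from the visual streak, where retinal neurons are packed most densely in a horizontal strip, and lay 2 to 3 mm ventral of the medullary rays, the myelinated fibres beside the optic disc. Nuclei of 3 animals of a genotype were mixed at equal concentration with 10000 nuclei as the target, and each mix was captured as 1 droplet library that reads the 3′ ends of polyadenylated RNA. The labels mention an assignment of nuclei to single animals, which would give replicates and was not used here. Each genotype was therefore treated as 1 library, so no p-value is given, the intervals below cover counting error only, and genotype, library and capture cannot be told apart.

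The KO library held 3058 nuclei and 8233524 unique molecular identifiers (UMIs, each a counted RNA molecule), and the WT library 3484 nuclei and 6916018 UMIs. The median nucleus had 1552.5 UMIs in the KO library and 1175.5 in the WT library. Of all barcodes, 5 occurred in both libraries, none of them in the 9 clusters (0 of 822). No doublet caller was run. The count matrix carries row numbers in place of gene names, so no gene is named, the CLRN1 level was not checked, and amacrine markers such as the GABA-synthesising enzymes or the glycine transporter could not be looked up. The cell type label was set beside the 9 module scores that the authors deposited for each nucleus instead.

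The 9 clusters ranged from 40 to 247 nuclei in size but together made up nearly the same share of each library. They held 12.5% of the KO nuclei (95% Clopper-Pearson interval 11.3 to 13.7) and 12.7% of the WT nuclei (11.6 to 13.8), a log2 ratio of -0.02. Cluster 5 was the largest in both, with 119 KO and 128 WT nuclei, or 31.2% and 29.0% of the nuclei of the 9 clusters. Clusters 11 and 13 followed, with 65 KO and 64 WT nuclei in cluster 11 and 49 KO and 61 WT nuclei in cluster 13. These 3 clusters therefore made up more of the nuclei than the other 6 in either library.

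The 6 smaller clusters held between 16 and 40 KO nuclei and between 22 and 47 WT nuclei. Cluster 17 had 40 KO and 36 WT nuclei, cluster 21 had 31 and 32, and cluster 22 had 21 and 22. Cluster 23 had 16 KO and 27 WT nuclei, and cluster 26 had 16 and 24. The library difference was widest in cluster 18, which had 24 KO nuclei, 6.30% of the 9 clusters (4.08 to 9.23), against 47 WT nuclei, 10.7% (7.94 to 13.9), a log2 ratio of -0.76. The intervals overlapped there too, and they lay apart in 0 of 9 clusters. Overlap of the intervals does not show that the shares were equal.

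**Figure D1:**
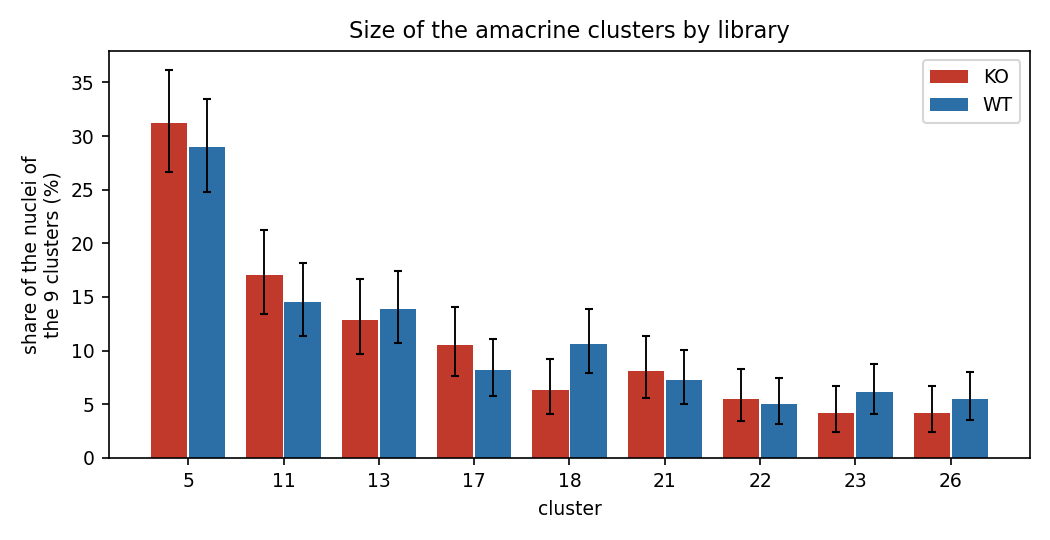
Share of each cluster among the nuclei of the 9 amacrine clusters (percent, y axis) by cluster (x axis), KO bar left of WT bar, with 95% Clopper-Pearson intervals for counting error. The order of sizes is led by cluster 5 in both libraries, and the pair of bars furthest apart on the log scale is that of cluster 18, at 6.30% in KO and 10.7% in WT.

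In the deposited two-dimensional embedding, whose axes have no unit, most of the clusters were compact groups set far apart. Of the 15 nearest neighbours of each nucleus, 96.5% on average belonged to its own cluster. Clusters 5 and 11 lay closest, with 2.08 units between their median positions, followed by clusters 5 and 22 at 2.85 and clusters 23 and 26 at 4.0. Cluster 18 stood alone at the edge of the map, 8.36 units from cluster 21, its nearest neighbour among the 9. Cluster 22 was the most mixed, with 10.4% of its nuclei's neighbours outside the 9 clusters, and lay 2.72 units from a Müller glia cluster. Other clusters also lay nearer to a cluster outside the 9 than to one of the 9. Cluster 21 lay 2.62 units from horizontal-labelled cluster 19, and cluster 13 lay 3.12 from horizontal cell cluster 20. Cluster 17 lay 4.0 from rod-labelled cluster 16, and cluster 18 lay 6.60 from cluster 19. Clusters 5, 11, 23 and 26 lay nearest to another of the 9. Distances in such a map keep local neighbourhoods and not global relations.

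**Figure D2:**
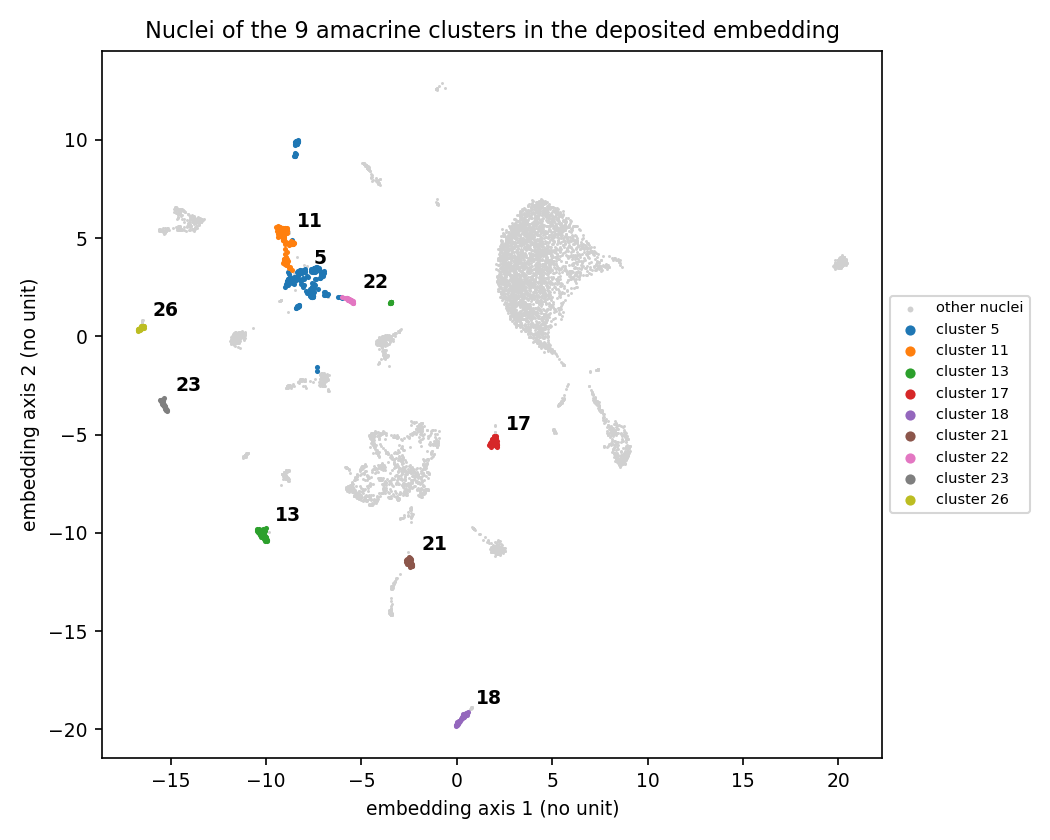
Position of every nucleus in the authors' embedding (both axes without unit), with the 9 amacrine clusters in colour at their cluster number and all other nuclei in grey. Clusters 5, 11 and 22 lie side by side, clusters 17, 18, 21, 23 and 26 are single compact groups, and clusters 5 and 13 each have a second group away from the first.

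Within the clusters the libraries were not fully mixed. KO nuclei were 46.4% of the 9 clusters, and they were 59.0% of the neighbours of KO nuclei against 34.5% of the neighbours of WT nuclei. The separation was widest in cluster 26, where KO nuclei were 81.3% of the neighbours of KO nuclei and 12.5% of those of WT nuclei. In cluster 18 these shares were 63.6% and 16.3%, and in cluster 13 they were 66.5% and 25.7%. Clusters 22 and 23 showed no such separation: the shares around KO and WT nuclei were 50.8% and 55.5% in cluster 22, and 35.8% and 39.8% in cluster 23. Whether the authors aligned the libraries before embedding was not stated in the labels or processing notes.

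The scores of all 9 clusters went with their label by median, which was not so in each of the amacrine clusters left out. A module score, in the form that Seurat writes, is the mean log level of a gene list minus that of control genes, so that values are compared by differences. The amacrine score had the highest median of the 9 scores in 9 of 9 clusters in the KO library and in 9 of 9 in the WT library. Nucleus by nucleus it was the highest score in 76.9% of the KO and 68.5% of the WT nuclei. In rod clusters 0, 1 and 3, its median was -0.08 in both libraries. In amacrine cluster 12 the horizontal cell score had the highest median, 0.34 in KO and 0.29 in WT, against amacrine medians of 0.24 and 0.20. In amacrine cluster 15 the amacrine score was highest in KO, at 0.58, but in WT the rod score was, at 0.48 against 0.25. The count of 9 of 9 thus depends in part on which clusters were kept, and scores and labels come from the same counts.

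Cluster 22 had by far the highest amacrine score, with a median of 1.02 in KO and 0.77 in WT nuclei, and the score was above 0 in 21 of 21 KO and 22 of 22 WT nuclei. Cluster 23 came next, at 0.60 in KO and 0.43 in WT nuclei. Cluster 13 was lowest, at 0.29 and 0.16, and there the amacrine score was the highest in 61.2% of KO and 54.1% of WT nuclei. Clusters 5, 11, 17, 18, 21 and 26 lay between, with medians of 0.36 to 0.49 in KO and 0.29 to 0.41 in WT nuclei. A score averages over a list whose genes are not given, so that a low median does not say which or how many of the listed genes were low in that cluster.

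Scores of other cell types set some clusters apart by their medians. The bipolar score had a positive median in cluster 18 alone, 0.06 in both libraries, and was above 0 in 66.7% of its KO and 57.4% of its WT nuclei. The intervals of both medians held 0, at -0.06 to 0.12 in KO and -0.04 to 0.13 in WT. The Müller glia score also had a positive median there, 0.11 in KO (-0.005 to 0.36) and 0.22 in WT nuclei (0.08 to 0.25). In cluster 21 the Müller glia score had a median of 0.17 in KO nuclei (0.03 to 0.32) and -0.13 in WT nuclei (-0.19 to 0.14), with overlapping intervals. Cluster 13 had the largest share of KO nuclei with a horizontal cell score above 0, 46.9% against 21.3% of its WT nuclei. The ganglion cell score was above 0 most often in cluster 11, in 41.5% of KO and 34.4% of WT nuclei. Microglia scores above 0 were rare, in 2 of 381 KO and 2 of 441 WT nuclei.

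**Figure D3:**
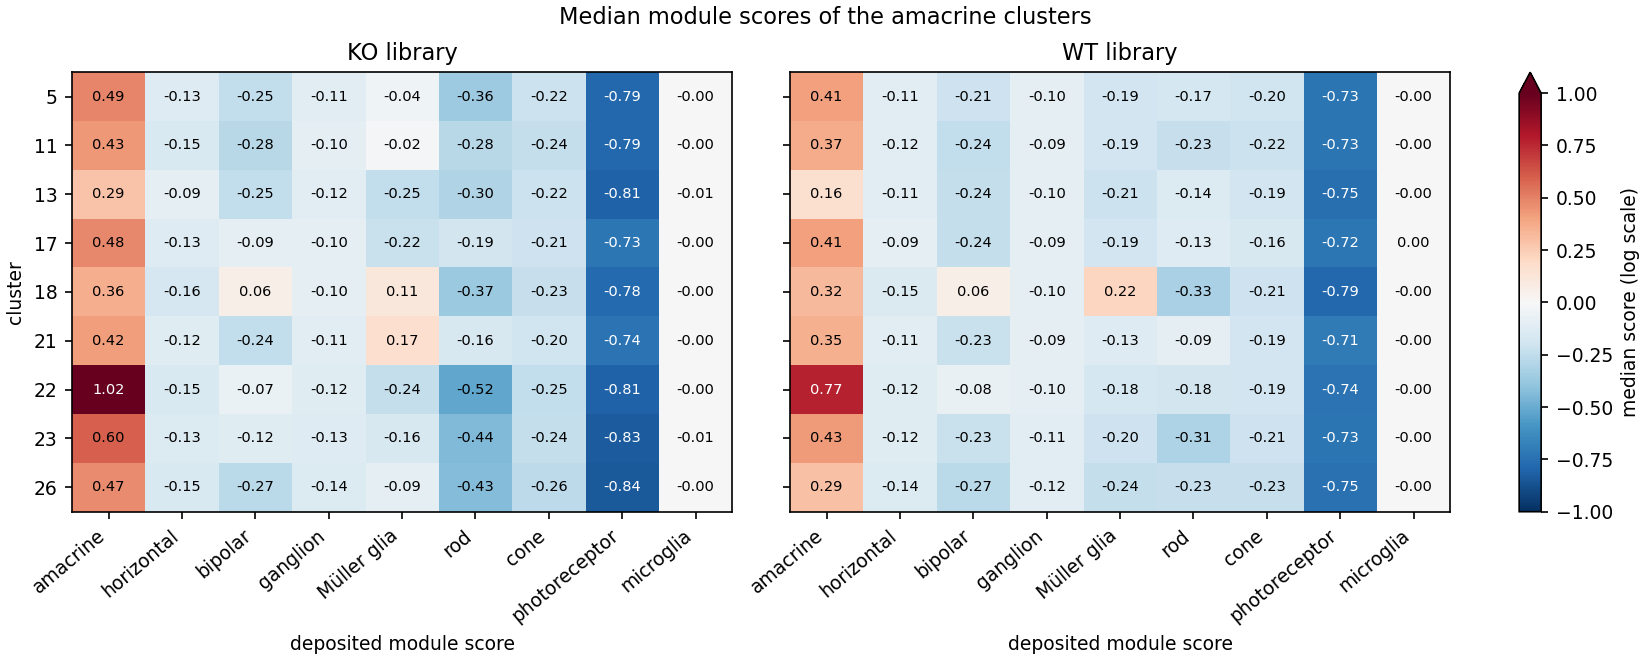
Median of each deposited module score (columns, log scale, colour and number) in each cluster (rows), KO library in the left panel and WT library in the right one. The amacrine column is the highest of every row in both panels and peaks in cluster 22 at 1.02 in KO and 0.77 in WT, while the other positive medians are those of cluster 18 in the bipolar and Müller glia columns and of cluster 21 for Müller glia in KO.

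The median amacrine score was higher in KO nuclei in 9 of 9 clusters, although the intervals of the libraries overlapped in each single cluster. Over the 9 clusters its median was 0.45 in KO nuclei (0.41 to 0.48) and 0.37 in WT nuclei (0.33 to 0.41), a difference of 0.08 with intervals that did not overlap. Scores move with depth, and KO nuclei were deeper. When nuclei were compared only with nuclei of like depth, in classes with limits at 1000, 2000 and 4000 UMIs, the difference was 0.04. The KO median was higher in 3 of 3 classes that held at least 10 nuclei of each library. Outside the 9, the median was also higher in KO in amacrine clusters 12 (by 0.03) and 15 (0.33), horizontal cells (0.06), Müller glia (0.06) and ganglion cells (0.03). It was lower in bipolar cells (-0.04) and slightly in rods (-0.003).

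The Müller glia and horizontal cell scores were above 0 in more KO than WT nuclei of the 9 clusters, and the rod score in fewer. For Müller glia the shares were 42.3% of KO (37.2 to 47.4) and 29.9% of WT nuclei (25.7 to 34.4). They were 45.6% in KO and 34.1% in WT among nuclei with 2000 to under 4000 UMIs, and 38.1% and 24.6% among deeper ones. In the rods, with a median of 865 KO and 761 WT UMIs, the Müller glia score was above 0 in 12.4% of KO and 15.4% of WT nuclei. In other populations it was above 0 in 64.6% of KO and 37.1% of WT nuclei of amacrine cluster 12, 58.7% and 47.8% of horizontal cells, 31.6% and 23.0% of ganglion cells, 20% and 16.3% of amacrine cluster 15, and 20% and 22.5% of bipolar cells. A larger KO share was thus not particular to the 9 clusters.

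For the horizontal cell score the shares in the 9 clusters were 21.5% of KO (17.5 to 26.0) and 9.98% of WT nuclei (7.34 to 13.2), although its median was lower in KO nuclei, by a difference of -0.02. Cluster 5 showed it most clearly, with 30.3% of KO and 11.7% of WT nuclei above 0. Among nuclei with 2000 to under 4000 UMIs the shares in the 9 clusters were 19.9% and 10.8%, and among deeper ones 25.9% and 12.3%. Outside the 9, the KO share was larger in bipolar cells (55%, 41.5% in WT), Müller glia (38.9%, 29.8%) and horizontal cells (100%, 95.7%). It was also larger in amacrine clusters 12 (66.7%, 61.4%) and 15 (5%, 2.04%) and in rods (2.79%, 1.76%). Ganglion cells went the other way (29.5%, 33.6%). Intervals overlapped in each of these populations. The rod score had a median of -0.34 in KO and -0.19 in WT nuclei and was lower in KO nuclei in 9 of 9 clusters. Among nuclei with 4000 or more UMIs that difference shrank to -0.01, against -0.13 among those with 1000 to under 2000. RNA high in rods was followed through 20 gene rows. They had the most rod UMIs among rows at least 4-fold higher by CPM in rods than in the 9 clusters. They took 0.68% of the UMIs of the 9 clusters in KO and 0.81% in WT, and were lower in KO in 7 of 9 clusters. In rods they took 7.61% and 7.25%, a gap to the 9 clusters that the choice of rows fixes. The rows were not particular to rods. They took 6.34% in KO and 6.03% in WT in cones, 2.87% and 3.27% in bipolar cells, and 2.87% and 2.32% in Müller glia. The part of rod RNA in the scores was not tested.

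A pair of clusters each covered more than one place in the map. Joining nuclei up to 1 unit apart divided cluster 5 into a largest group of 197 nuclei (93 KO, 104 WT), a second group of 47 (26 KO, 21 WT) and 3 further nuclei, all WT. Cluster 13 fell into 98 nuclei (41 KO, 57 WT) and 12 nuclei (8 KO, 4 WT). The other 7 clusters were 1 group each. Both second groups held nuclei of both libraries, and joining distances of 0.5 and 2 gave second groups of 47 and 12 nuclei again.

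The second group of cluster 5 had the weaker amacrine score, with a median of 0.25 against 0.52 in the largest group. Amacrine was its highest score in 14 of 47 nuclei, against 162 of 197. Its horizontal cell score was above 0 in 25 of 47 nuclei (53.2%), against 25 of 197 (12.7%), with a median of 0.23 in its KO and -0.08 in its WT nuclei. Among the 6 rows that led cluster 5 as a whole, 1 was found almost only in this second group: it had a UMI in 20 of 26 KO and 12 of 21 WT nuclei there, against 0 of 93 KO and 1 of 103 WT nuclei of the largest group. Another of the 6 ran the other way, with a UMI in 1 of 26 KO and 0 of 21 WT nuclei of the second group, against 22 of 93 KO and 28 of 103 WT nuclei of the largest group. The groups were drawn after their places in the map were seen, so these are descriptions.

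In cluster 13, the second group had a median amacrine score of -0.06, against 0.26 in the largest group, and amacrine was the highest score in 3 of 12 nuclei against 60 of 98. Of the 10 rows that led the cluster, 3 had no UMI in the second group in either library. The strongest of these was found in 0 of 8 KO and 0 of 4 WT nuclei there, against 41 of 41 KO and 53 of 57 WT nuclei of the largest group. The other two were less common in the largest group too, in 27 of 41 KO and 25 of 57 WT nuclei and in 8 of 41 KO and 10 of 57 WT nuclei. Another leading row was present in both groups, in 8 of 8 KO and 4 of 4 WT nuclei of the second group and in 41 of 41 KO and 57 of 57 WT nuclei of the largest. With so few nuclei in the second group, rows of low level may go undetected there.

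Depth differed between clusters and between libraries. The median nucleus of the 9 clusters held 3431 UMIs in KO (3275 to 3652) and 2748 in WT (2593 to 2820), a ratio of 1.25. KO medians were higher in 9 of 9 clusters, by 1.21- to 1.52-fold, and the intervals lay apart in clusters 5, 11 and 13. Cluster 26 was the deepest, with 4705.5 UMIs in KO and 3626 in WT nuclei, and cluster 18 followed with 4686.5 and 3585. Cluster 21 was the shallowest in KO, with 2464 UMIs against 2041 in WT, and cluster 17 the shallowest in WT, with 2705 in KO and 1907 in WT.

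The number of genes detected followed depth, at a median of 1725 per nucleus in KO and 1400 in WT. Genes per UMI ran opposite to depth: the median was 0.50 in KO and 0.52 in WT, lower in KO in 9 of 9 clusters. It was highest in cluster 17, at 0.55 in KO and 0.58 in WT. To remove depth, each nucleus was thinned at random to 1000 UMIs, which left out 3 KO and 11 WT nuclei.

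At this fixed depth the direction turned, and KO nuclei showed more genes than WT nuclei in 9 of 9 clusters. The medians over the 9 clusters were 689 genes in KO (685 to 691) and 655 in WT (652 to 659). Differences per cluster ran from 16 genes in cluster 21 to 39 in cluster 11, and the intervals lay apart in clusters 5, 11, 13, 17 and 26. Cluster 13 was the most diverse, with 701 genes in KO and 677.5 in WT nuclei, and cluster 23 the least, with 645 and 622. Most other populations, thinned in the same way, also had more genes in KO: cones 706 in KO and 683 in WT, ganglion cells 651 and 636.5, amacrine cluster 12 687 and 667, Müller glia 680 and 663, and horizontal cells 609 and 601.5. The intervals lay apart in cones and ganglion cells. Rods had 687 genes in KO and 682 in WT, over 497 KO and 350 WT nuclei, since 844 KO and 1192 WT rods were too shallow to thin. Amacrine cluster 15, at 691 in KO and 697 in WT, and bipolar cells, at 682 and 684, had fewer in KO, with overlapping intervals.

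A single gene row, the one with the most UMIs in the whole matrix, took 6.45% of the UMIs of the 9 clusters in KO and 7.69% in WT. It was lower in KO in 9 of 9 clusters and widest apart in cluster 11, at 6.79% in KO and 9.66% in WT; in rods it took 1.51% and 1.70%. Without that row, KO nuclei again had more genes at 1000 UMIs in 9 of 9 clusters, by 9 to 36.5.

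**Figure D4:**
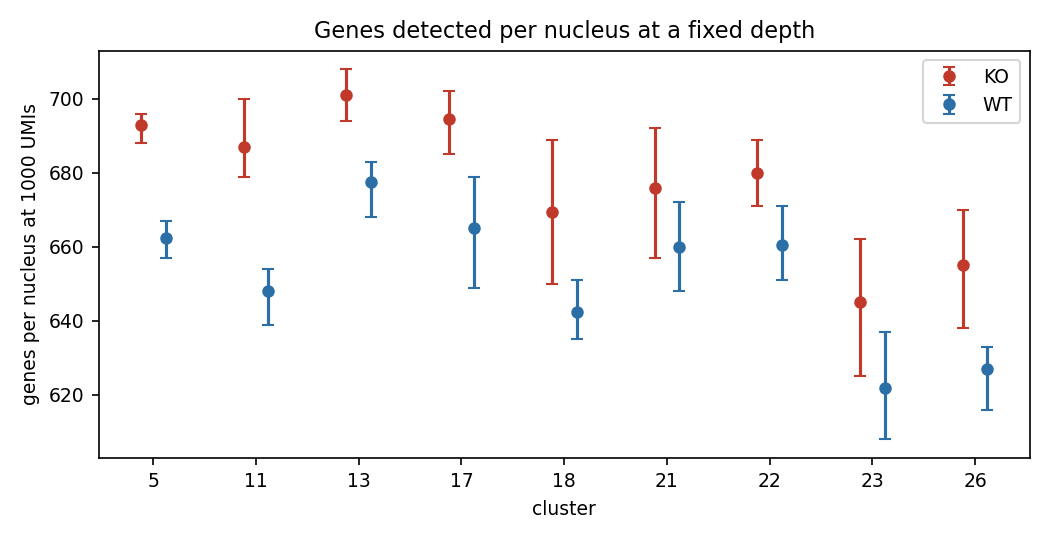
Median number of genes detected per nucleus after thinning to 1000 UMIs (y axis, not starting at 0) by cluster (x axis), KO point left of WT point, with 95% order-statistics intervals. The KO point is above the WT point in every cluster, by 16 to 39 genes, and cluster 23 is lowest in both libraries.

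Mitochondrial RNA, which marks cytoplasm carried along with nuclei, was low throughout. It made up 0.37% of the UMIs of the 9 clusters in KO and 0.26% in WT. The median nucleus had a higher mitochondrial percent in KO in 7 of 9 clusters. Cluster 18 had the lowest median, at 0.05% in KO and 0.07% in WT, and cluster 11 the highest, at 0.27% and 0.18%. The KO median of cluster 18 had a wide interval, 0.02 to 0.43. Of all UMIs of its KO nuclei 0.40% were mitochondrial, above the 0.37% of the 9 clusters together, and 12.5% of these nuclei had more than 1%. More than 1% was found in 8.40% of KO (5.82 to 11.7) and 3.63% of WT nuclei (2.09 to 5.83), intervals that only just overlapped, and cluster 21 had the largest such share, 12.9% of KO and 12.5% of WT nuclei. The KO share was also the larger one in amacrine clusters 12 and 15, at 9.09% of KO and 2.52% of WT nuclei, and in bipolar cells, at 11.3% and 2.82%. It was the smaller one in rods, at 5.02% and 9.29%, and in cones, at 0% and 3.30%. The KO share was also smaller in horizontal cells, with 1 of 46 KO and 3 of 23 WT nuclei. In ganglion cells it was slightly smaller, at 12.6% of KO and 13.1% of WT nuclei. Müller glia were nearly level, at 5.56% and 5.34%.

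For the whole profile, raw counts were summed over the nuclei of each cluster in each library and scaled to CPM, the count of a row per 1000000 UMIs of the sum. Profiles were compared by Pearson's r of log2(CPM + 10) over 6436 gene rows with at least 50 UMIs, which hold 95.8% of the UMIs. The points are gene rows, which share libraries and are not replicates. Every KO profile was most like the WT profile of its own cluster among the 9, and the same held from WT to KO, in 9 of 9 clusters each way. The r with the own cluster was 0.78 to 0.91, and the clusters were defined on these nuclei, so a match follows in part from their definition.

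Sums of small clusters are noisier and give a lower r, so every sum was also thinned to 67262 UMIs, the smallest of the 18. The own-cluster r then spanned 0.75 to 0.78, against a median of 0.59 in KO and 0.61 in WT over the 36 pairs of clusters. The closest pairs were 5 with 11, at 0.69 in KO and 0.70 in WT, and 5 with 23, also at 0.69 and 0.70. Clusters 23 and 26 had 0.68 and 0.69, and clusters 13 and 17 had 0.67 and 0.69. Cluster 5 was thus near several others, with the highest mean r to the other 8, 0.65 in KO and 0.67 in WT. The sum of cluster 5 joins its separate groups in the map, and the part of this in its r was not tested. Cluster 18 was the least like the rest, with a mean r of 0.55 and 0.58, and its r of 0.53 with cluster 17 in KO was the lowest of all pairs in that library.

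Profile and map gave partly different neighbours. Clusters 5 and 11 were close in both. Clusters 13, 17 and 21, at least 7.55 units apart in the map, had r of 0.65 to 0.67 in KO and 0.67 to 0.69 in WT with each other, while cluster 22, which lay beside cluster 5, had an r of 0.63 in KO and 0.67 in WT with it.

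Outside the 9, amacrine cluster 15 had a median r with them of 0.63 in KO and 0.64 in WT, and amacrine cluster 12 one of 0.56 and 0.61. Ganglion cells (cluster 7), which also lie in the inner retina, came to 0.60 and 0.64, bipolar cells to 0.56 and 0.59, and rods to 0.42 and 0.46. Single clusters reached an r of 0.55 to 0.70 in KO and 0.60 to 0.71 in WT with ganglion cells, beside 0.53 to 0.69 in KO and 0.57 to 0.70 in WT among the pairs of the 9. These ranges overlapped in both libraries. Cluster 5 had the highest r with ganglion cells, 0.70 in KO and 0.71 in WT. Its r with the closest other cluster of the 9 was lower, at 0.69 in KO and 0.70 in WT. In cluster 18 the r with ganglion cells was the higher one in WT alone, at 0.603 against 0.601. Each remaining cluster was closer to another of the 9 than to ganglion cells in both libraries.

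**Figure D5:**
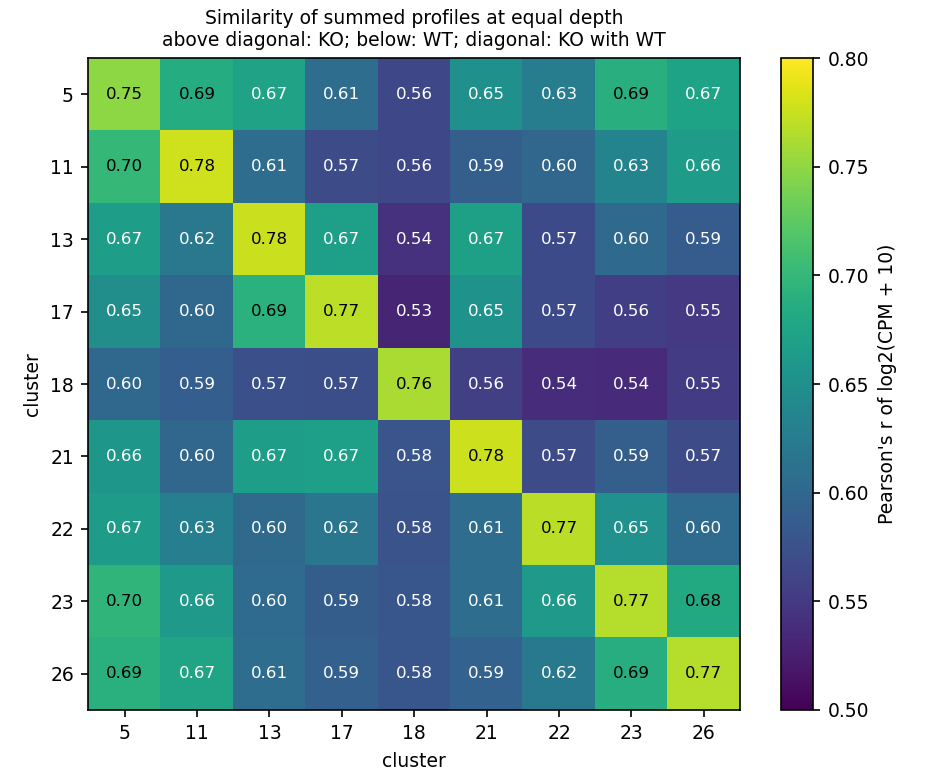
Pearson's r of log2(CPM + 10) between the summed profiles of the 9 clusters at 67262 UMIs each, with KO pairs above the diagonal, WT pairs below it and the r of KO with WT of the same cluster on it. The diagonal, at 0.75 to 0.78, is above every other cell, and the row and column of cluster 18 are the darkest.

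Cluster-leading rows, those at least 4-fold higher by CPM in 1 cluster than in each of the other 8 in both libraries with at least 20 UMIs there, numbered 119. Cluster 18 had 42 of them, which took 3.96% of its UMIs in KO and 4.76% in WT. Cluster 5, the largest, had 6, which took 0.086% and 0.087%. The others had 13 (cluster 17), 12 (11), 11 (26), 10 (13 and 21), 8 (23) and 7 (22). The rule used the levels compared here, so the values below are descriptions.

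The rows with the highest level in each cluster fell into a few kinds. In clusters 18, 17, 21 and 26, the top row was strong there but also present elsewhere. That of cluster 26 had 18654 CPM in KO and 20627 CPM in WT, against 3125 and 2997 CPM in the next of the 9 clusters, and ganglion cells had 7332 and 6737 CPM. That of cluster 18 had 14185 and 18823 CPM and was found in 24 of 24 KO and 44 of 44 WT nuclei; horizontal cells (cluster 20) had 5285 and 5625 CPM. The top row of cluster 17 had 9450 CPM in KO and 10065 CPM in WT, against 1622 and 1579 CPM in cluster 21. The top row of cluster 21 had 8611 CPM in KO and 8296 CPM in WT, and amacrine cluster 12 had 3654 and 4373 CPM.

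Other rows were close to exclusive among the 9. The top row of cluster 23 had 7333 CPM in KO and 7949 CPM in WT, against 129 and 228 CPM in the next cluster, and was found in 14 of 16 KO and 26 of 27 WT nuclei. A row of cluster 13 had 2875 and 3402 CPM, against 17.8 and 57.6 CPM in the next cluster, and was found in all of its 49 KO and 61 WT nuclei. The second row of cluster 18 had 2860 CPM in KO and 4387 CPM in WT, against 46.7 and 83.9 CPM.

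Leading among the 9 did not make a row particular to a cluster in the retina. The third row of cluster 17 had 1764 CPM in KO and 1977 CPM in WT, but horizontal cells had 14825 and 13981 CPM. The top row of cluster 22 had 2216 and 2538 CPM, and amacrine cluster 12 had 2163 and 1762 CPM. The top row of cluster 11 had 2207 and 2755 CPM, present in 64 of 65 KO and 64 of 64 WT nuclei, and Müller glia had 931 and 1479 CPM. In cluster 5 no leading row was found in more than 22.8% of the nuclei of a library, and 1 of them was found almost only in its second group in the map, as given above.

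Between genotypes, more gene rows were higher in KO than lower. Past 2-fold by CPM, 433 of 6436 rows were higher in KO (6.73%) and 53 were lower (0.823%), with a median log2 ratio of 0.04 over all tested rows. Over all nuclei of the series, 3.19% of 10367 rows were higher and 0.965% lower. In rods the split was even, at 1.76% higher and 1.7% lower of 5897 rows. In amacrine clusters 12 and 15, 2.6% of 2000 rows were higher and 1.95% lower. These shares depend on how many UMIs stand behind each row, and the counts of nuclei differ between the populations. Among the 2728 rows with at least 200 UMIs in the 9 clusters, 107 were higher and 4 lower.

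Taken one by one, with the 50 UMIs now required of the cluster alone, each of the 9 clusters had more rows higher in KO than lower. The share was widest in cluster 22, at 7.35% higher and 0.967% lower of 517 rows, and in cluster 18, at 6.31% and 3.05% of 983. Clusters 26 (5.7% higher, 2.65% lower), 17 (5.56%, 2.45%) and 5 (5.55%, 1.11%) were alike in their share of higher rows. Clusters 11 (5.11%, 1.27%), 13 (4.75%, 1.9%) and 23 (4.33%, 3.46%) came lower, and cluster 21 had the smallest shares in both directions, at 2.99% and 0.641% of 468 rows. Cluster 23 was the nearest to an even split.

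The 433 rows were chosen on the sum of these clusters, so that their direction in single clusters is largely fixed by the choice: 134 were higher in KO in all 9 clusters and a further 141 in 8. They took 4.72% of the UMIs in KO and 1.83% in WT, and their median level was 53.6 CPM in KO and 21.8 CPM in WT. The one with the most UMIs had 1646 in KO and 583 in WT, or 1160 and 471 CPM, and was higher in KO in 9 of 9 clusters, while rods had 279 CPM in KO and 410 CPM in WT. Of the 5 such rows with the most UMIs, 3 were lower in KO in rods and 2 higher. The second had 1021 CPM in KO and 352 CPM in WT in the 9 clusters, and 169 and 219 CPM in rods. The third had 937 CPM in KO and 376 CPM in WT, and 347 and 298 CPM in rods, and the fifth had 912 and 249 CPM, and 244 and 189 CPM in rods.

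The same 433 rows were followed in the other cell types, which come from the same 2 libraries. Their median log2(CPM + 10) difference, KO minus WT, was 1.01 in the 9 clusters, where it was fixed by the choice. It was 0.48 in amacrine cluster 12 and 0.63 in amacrine cluster 15, against 0.04 and 0.00 over all 6436 rows there. It was 0.43 in ganglion cells (0.03 over all rows), 0.51 in bipolar cells (0.03) and 0.56 in horizontal cells (0). It was 0.19 in Müller glia (0.04) and 0.23 in cones (0.01). In rods it was -0.00, against -0.01 over all rows. Larger values were thus found in the inner retinal neurons than in the photoreceptors. The rows were chosen on their UMIs and fold in the 9 clusters, and adding 10 CPM makes the difference of a row of low level smaller. As a set, their level in the other populations was not compared, so this order does not show a difference between cell classes. The part of depth, free RNA or cytoplasm in these values was not tested either.

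Of the 53 rows lower in KO, 8 were leading rows of cluster 18, whose joined nuclei in these sums were 24 in KO and 44 in WT. The one with the most UMIs was the second row of that cluster named above, at 257 CPM in KO and 596 CPM in WT over the 9 clusters. Within cluster 18 itself it had 2860 CPM in KO and 4387 CPM in WT. With each cluster given equal weight, 446 rows were higher and 96 lower. Of the 446 rows, 362 were among the 433 higher ones, and of the 96 rows, 34 were among the 53. Without cluster 18, 47 of 6118 rows were lower (0.768%), close to the main share of 0.823%, and 31 of the 47 were among the 53. Which rows were called thus changed with the weight of the clusters, more so among those lower in KO.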

How the data were processed

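Tools listed in the submitters' processing notes were DESeq2 1.38.0, Cell Ranger 7.0 and Seurat 4.3.0, with OryCun2.0 as the rabbit build; their roles are not stated there. The authors deposited raw UMI counts per nucleus and a count matrix of 15806 rows and 6542 columns, both numbered. Mitochondrial content was deposited as a percent of UMIs, and each module score, cluster, cell type and embedding position was used as deposited by the authors. No label or note read here states the filters on nuclei, doublet removal or free RNA correction. The per-animal assignment by natural variation that the labels mention was not used here.

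Matrix columns were joined to nuclei by their total UMIs and genes where that pair occurred once in each table: 6315 nuclei (96.5%), 816 of the 822, all at the same position in both. The totals were equal at all 6542 positions, and 10 rows summed to the deposited mitochondrial UMIs in every nucleus. Profile results use the 380 KO and 436 WT nuclei so joined. Libraries were taken from the library name in the table.

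Intervals at 95% are Clopper-Pearson for shares and order statistics for medians. Without the per-animal assignment each genotype was 1 library and no test was run; called means past 2-fold with at least 50 UMIs. Members, groups and rules were chosen with earlier results of these data known, and with numbered rows no gene was named, as the rule for naming genes states. Python 3.11.15, numpy 2.4.6, SciPy 1.17.1 and edgeR 4.0.16 (TMM factors as an alternative only) were used, and calculations were tested on simulated data.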

Additional observations from a re-analysis of the deposited data

Results flagged for a closer look

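The rod score and the mitochondrial percent differed between libraries in opposite directions in the 9 amacrine clusters and in rod clusters 0, 1 and 3. The median rod score, KO minus WT, was -0.15 in the 9 clusters and 0.17 in the rods. The mitochondrial percent of UMIs, KO minus WT, was 0.11 percentage points in the 9 clusters (0.37% in KO, 0.26% in WT) and -0.22 percentage points in the rods (0.23% in KO, 0.45% in WT). Each value compares 1 library per genotype, and the difference between the populations was not tested. The populations listed next had the direction of the 9 clusters in the rod score and a mixed one in the mitochondrial percent. The rod score difference was -0.16 in amacrine cluster 12, -0.59 in amacrine cluster 15, -0.25 in horizontal cells, -0.22 in Müller glia, -0.11 in ganglion cells and -0.05 in bipolar cells. The mitochondrial percent was 0.28% in KO and 0.17% in WT in amacrine clusters 12 and 15, 0.38% and 0.18% in bipolar cells, 0.67% and 0.40% in ganglion cells and 0.30% and 0.22% in Müller glia, while it was lower in KO in horizontal cells (0.34%, 0.38%) and cones (0.10%, 0.16%).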

How the results depend on the processing

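Of 51 alternative values for 14 results, 34 stayed near the main value and 17 moved further. Near means within counting error or within 1.5 times the main count. For the median r between clusters it means no further from the main value than the KO and WT main values were from each other. The share of the 9 clusters was lower in KO by a log2 ratio of -0.02 over all nuclei and higher by 0.11 over nuclei other than rods (38.1% of KO, 35.4% of WT), with overlapping intervals both times. Own-cluster matches were 9 of 9 under each alternative run. Genes at fixed depth moved in scale: the spread between the highest and lowest cluster median was 56 genes in KO and 55.5 in WT at 1000 UMIs, 21 and 27 at 500 UMIs, and 806.5 and 489.5 without thinning. The median r between clusters, 0.64 in KO and 0.66 in WT, was 0.54 and 0.55 with log2(CPM + 1), 0.82 and 0.82 with no filter on rows, and 0.59 and 0.61 with sums thinned to equal depth. Rows higher in KO were 2864 with no filter on rows and 107 with at least 200 UMIs, against 433. Rows lower in KO were 83 with TMM factors, 83 with median-of-ratios factors, 1642 with no filter, 4 with at least 200 UMIs and 96 with equal weight per cluster, against 53; both scaling factors gave fewer rows higher in KO, 366 and 360. Fewer rows were tested under the stricter filter (2728 of 6436) and more without one (14521); the other causes were not tested. The equal weight, leaving out cluster 18, joining all nuclei by position and leaving out the highest row were chosen after seeing the data. No paired analysis was possible because each genotype was used as 1 library of pooled animals. The clusters of 16 to 27 nuclei limit what their shares can show.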
